A study of Homo sapiens with 6 samples.

Results

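The enzymes that build, remodel, cut and burn fatty acids and phospholipids were followed after silencing of the histone acetyltransferase HBO1. The cells were UWB1.289, an established line of human ovarian carcinoma that lacks functional BRCA1. The set held 39 genes chosen by name: 14 of fatty acid synthesis, elongation and desaturation, 4 acyl-CoA synthetases, 10 lipins and acyltransferases of glycerolipid assembly, 5 phospholipases and 6 enzymes of mitochondrial oxidation. Of these, 36 genes had at least 1 annotated probe, 61 probes in all, among 20044 named genes on the array, and ACSL3, AGPAT3 and LPIN3 had none. The list was drawn up with results of this same comparison known, so the values below are a description of its members and are not independent evidence about them.

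RNA of 6 samples was hybridised to Illumina bead arrays, 3 from cells given siRNA against HBO1 (KAT7, also called MYST2) and 3 from cells given a scramble siRNA, all collected 48 hours later. All 6 come from the same line in 12-well plates, and all were transfected. Whether the HBO1 siRNA was a single duplex or a pool is not given in the sources used here. Nor is it stated that replicates were separate cultures. The p-values set the group difference against the spread of these samples within a group, which may be technical only. Differences are given on the log2 scale as HBO1 siRNA minus control siRNA, from normalised probe intensity.

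Long-chain fatty acids are made from cytosolic acetyl-CoA. ACLY supplies that acetyl-CoA, ACACA and ACACB carboxylate it to malonyl-CoA, FASN extends the chain, and ELOVL and FADS or SCD enzymes lengthen and desaturate it. Acyl-CoA synthetases activate the product, GPAM and the AGPAT enzymes place it on glycerol 3-phosphate to give phosphatidate, and lipins and DGAT enzymes turn phosphatidate into diacylglycerol and triacylglycerol. Phospholipases release fatty acids or head groups from membrane lipids, while CPT1A, the entry gate of mitochondria, is inhibited by malonyl-CoA. Many genes of synthesis are targets of the SREBP transcription factors.

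The silenced gene was lower on its single probe (ILMN_1798187). KAT7 read 5.59, 6.29 and 5.98 in HBO1 siRNA cells, against 7.98, 7.93 and 7.56 in control siRNA cells (log2 fold change -1.87, SE 0.20, limma adjusted p = 0.0187; two-sided exact permutation p = 0.1, the smallest that 3 against 3 arrays allow). The KAT7 probe was detected on 2 HBO1 siRNA arrays and 3 control arrays. Its reading of 5.59 lay below the lowest detected signal of that array, 5.83, so the size of the fall is uncertain. Between 20546 and 21175 probes were detected on the HBO1 siRNA arrays and between 21262 and 21507 on the control arrays. Of 8 markers of ovarian carcinoma and epithelium, 7 were detected on all 6 arrays, and WT1, a transcription factor of serous carcinoma, was detected on 1 HBO1 siRNA array and 3 control arrays. WT1 was at -0.53 and was not called (limma adjusted p = 0.113), with every HBO1 siRNA array below every control array. MUC16, the CA125 antigen, was among the 7 and was higher in HBO1 siRNA cells (1.33, SE 0.18, limma adjusted p = 0.0243). The 8 markers were also added on the linear scale and the sum taken to log2. It lay between 15.76 and 15.90 in HBO1 siRNA cells and between 15.71 and 15.81 in control cells. The brightest markers, such as EPCAM, dominate this sum, so it says little about MUC16 or WT1. Among markers of other cells, PTPRC of leukocytes, COL3A1 of fibroblasts, ADIPOQ and PLIN1 of adipocytes and APOA1 and APOC3 of hepatocytes were detected on 0 arrays. LEP of adipocytes and ALB of hepatocytes were detected on all 6 arrays, and FABP4 and COL1A1 on 5. PECAM1, a marker of endothelium, was detected on all 6 (0.68, limma adjusted p = 0.102), between 6.77 and 7.42 in HBO1 siRNA cells and between 6.18 and 6.46 in control cells. The part of these markers in the results was not tested. Over the whole array 2.73% of tested probes were called.

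PLA2G10 and LPIN1 passed the test across all probes, and both were higher after HBO1 silencing. PLA2G10 encodes a secreted phospholipase A2 that releases fatty acids, arachidonate included, from the phosphatidylcholine of outer membranes and lipoproteins. LPIN1 encodes lipin 1, a phosphatidate phosphatase that makes diacylglycerol and also acts as a nuclear coregulator. Their promoters are shown because these members carry the calls. The windows are RefSeq sequences of build GRCh38.p14 and end at the base before the annotated start site, with matches to the GC box GGGCGG on either strand in capitals.
PLA2G10, chr16:14694309-14694558, minus strand: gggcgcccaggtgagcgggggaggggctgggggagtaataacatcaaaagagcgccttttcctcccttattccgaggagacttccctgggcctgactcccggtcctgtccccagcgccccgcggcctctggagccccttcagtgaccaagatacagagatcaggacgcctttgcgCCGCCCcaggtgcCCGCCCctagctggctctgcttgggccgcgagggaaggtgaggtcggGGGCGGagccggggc
LPIN1, chr2:11746382-11746631, plus strand: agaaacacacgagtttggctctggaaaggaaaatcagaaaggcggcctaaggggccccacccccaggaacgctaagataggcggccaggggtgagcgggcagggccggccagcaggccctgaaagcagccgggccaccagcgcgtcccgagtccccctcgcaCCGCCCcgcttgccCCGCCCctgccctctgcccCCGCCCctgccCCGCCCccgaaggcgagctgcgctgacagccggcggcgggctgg
The PLA2G10 window held 3 GC boxes and the LPIN1 window 4. This box was added to the search after the values were seen. It was in 42.6% of all windows and 64.8% of member windows, so it does not set these 2 genes apart. The table lists 2 further LPIN1 starts, whose windows (chr2:11677294-11677543 and chr2:11724065-11724314) held 0 and 1 GC boxes, and the arrays do not tell which start was used. None of these 4 windows held the sterol element TCACNCCAC, the E-box CACGTG or the CCAAT box CCAAT, searched on both strands.

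PLA2G10 had the largest difference of the set. Its single probe (ILMN_1762561) read 9.69, 9.73 and 9.44 in HBO1 siRNA cells, against 8.59, 8.09 and 8.03 in control siRNA cells. The groups were apart, and the gap between them was wider than the range within either group. The mean was 9.62 ± 0.16 in HBO1 siRNA cells and 8.24 ± 0.31 in control cells (SD, n = 3 each). That is a 2.61-fold rise, or 1.39 on the log2 scale (95% confidence interval 0.98 to 1.79, limma adjusted p = 0.021). The call stood when control replicate 1 (limma adjusted p = 0.0427) or the third HBO1 siRNA array (0.0405) was left out. Omitting control replicate 2 (0.102), control replicate 3 (0.0855) or the first (0.0694) or the second (0.0806) HBO1 siRNA array ended it. The log2 fold change ran from 1.28 to 1.56 over the 6 omissions. Calls were lost over the whole array too, from 390 named genes with all 6 arrays to between 0 and 180 with 1 left out. RefSeq lists 8 pseudogenes named after PLA2G10 on chromosome 16, and whether the probe also binds their transcripts was not tested, so the assignment to PLA2G10 itself is uncertain. RNA was taken from whole cultures, where more cells with the transcript and more transcript per cell cannot be told apart.

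LPIN1 showed a smaller difference. Its single probe (ILMN_1671554) read 11.90, 12.03 and 11.93 in HBO1 siRNA cells, against 11.48, 11.53 and 11.37 in control siRNA cells. Every HBO1 siRNA array lay above every control array. The mean was 11.95 ± 0.07 in HBO1 siRNA cells and 11.46 ± 0.08 in control cells (SD, n = 3 each), a 1.41-fold rise (0.49, 95% confidence interval 0.27 to 0.71, limma adjusted p = 0.0455). That p lay just under the threshold of 0.05. Leaving out any 1 of the 6 arrays ended the call (adjusted p from 0.0724 without HBO1 siRNA replicate 3 to 0.158 without control replicate 3), while the difference itself stayed between 0.44 and 0.53. Median scaling (0.0801) and testing all probes without a detection filter (0.0834) ended it too, and over the alternatives that kept all 6 arrays the adjusted p ran from 0.00262 to 0.0834.

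**Figure D1:**
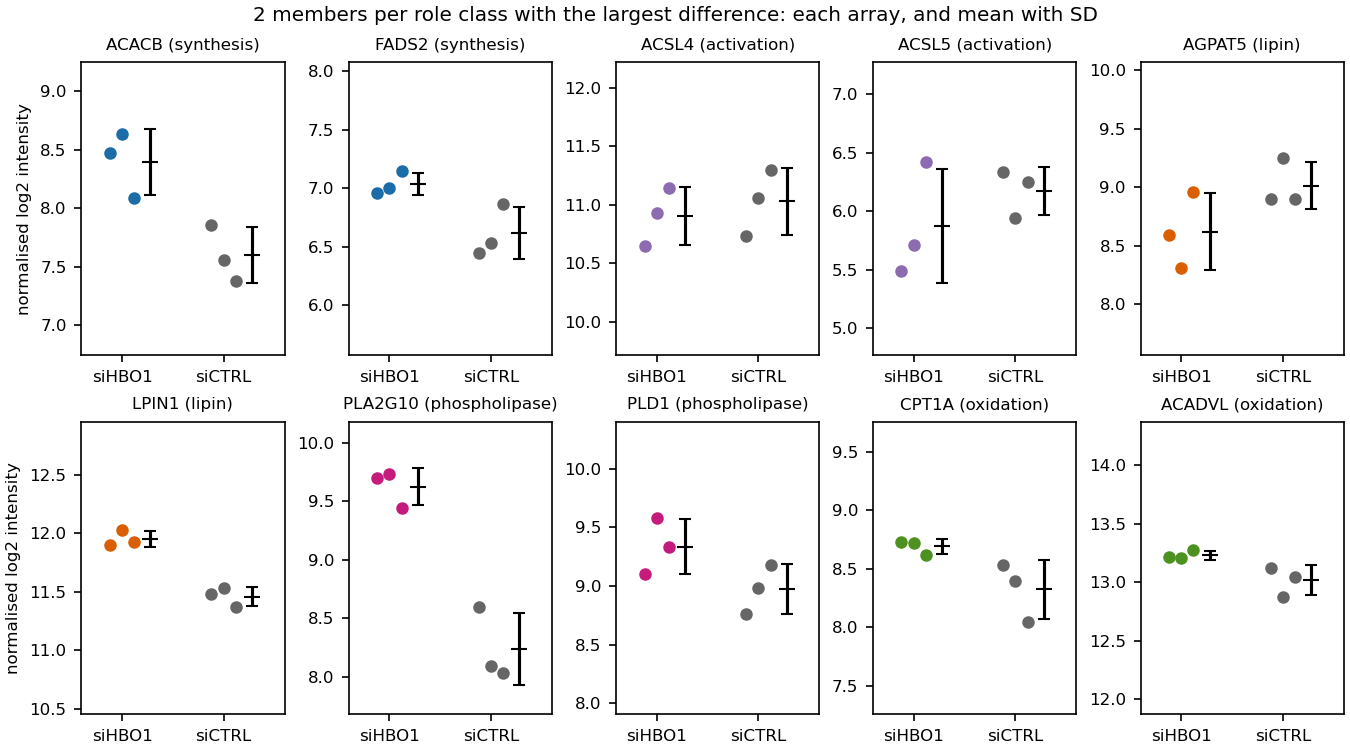
Normalised log2 intensity on each array for the 2 members per role class with the largest absolute log2 fold change, HBO1 siRNA (coloured points) beside control siRNA (grey points), with the mean and SD of 3 arrays in black and every panel spanning the same height on the log2 scale. The 3 HBO1 siRNA arrays of PLA2G10 lie between 9.44 and 9.73 and the control arrays between 8.03 and 8.59, the widest gap among these genes, and ACSL5, ACSL4, AGPAT5 and PLD1 overlap between groups.

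Set against the array as a whole, 2 of 35 tested members were called, which is 5.71%, where 3.19% of all 12227 named genes were called (1.91% higher and 1.28% lower in HBO1 siRNA cells), each gene taken by its brightest tested probe. ELOVL7, an elongase, was not tested because its probe was detected on 0 arrays. In limma's test 0 members were called lower, and at an unadjusted p under 0.05 there were 9 higher and 0 lower, against 23.8% of named genes (12.9% higher and 10.9% lower). The difference was positive for 23 members, 65.7%, against 51.8% of named genes. The 3 HBO1 siRNA arrays all lay above the 3 control arrays for 12 members and all below for 0, and 34.3% of members were apart in this way, against 30.9% of named genes (16.7% higher and 14.2% lower). These 12 were ACACA, ACACB, SCD, ELOVL6, FADS2, LPIN1, LPIN2, DGAT1, PLA2G10, PLAAT3, CPT1A and ACADVL. The median log2 fold change was 0.089 over the 35 members and 0.010 over all named genes. With median scaling both medians moved down, to 0.0043 for the members and -0.05 for all named genes.

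The other 33 tested members were not called. The standard error of the 35 members ran from 0.09 to 0.24, with a median of 0.13. Among the 35, PLA2G10 and ACACB differed by at least 1.5-fold. For 32 of the 33 uncalled members the 95% confidence interval lay within 2-fold either way, and for 22 it lay within 1.5-fold. The exception at 2-fold was ACACB.

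**Figure D2:**
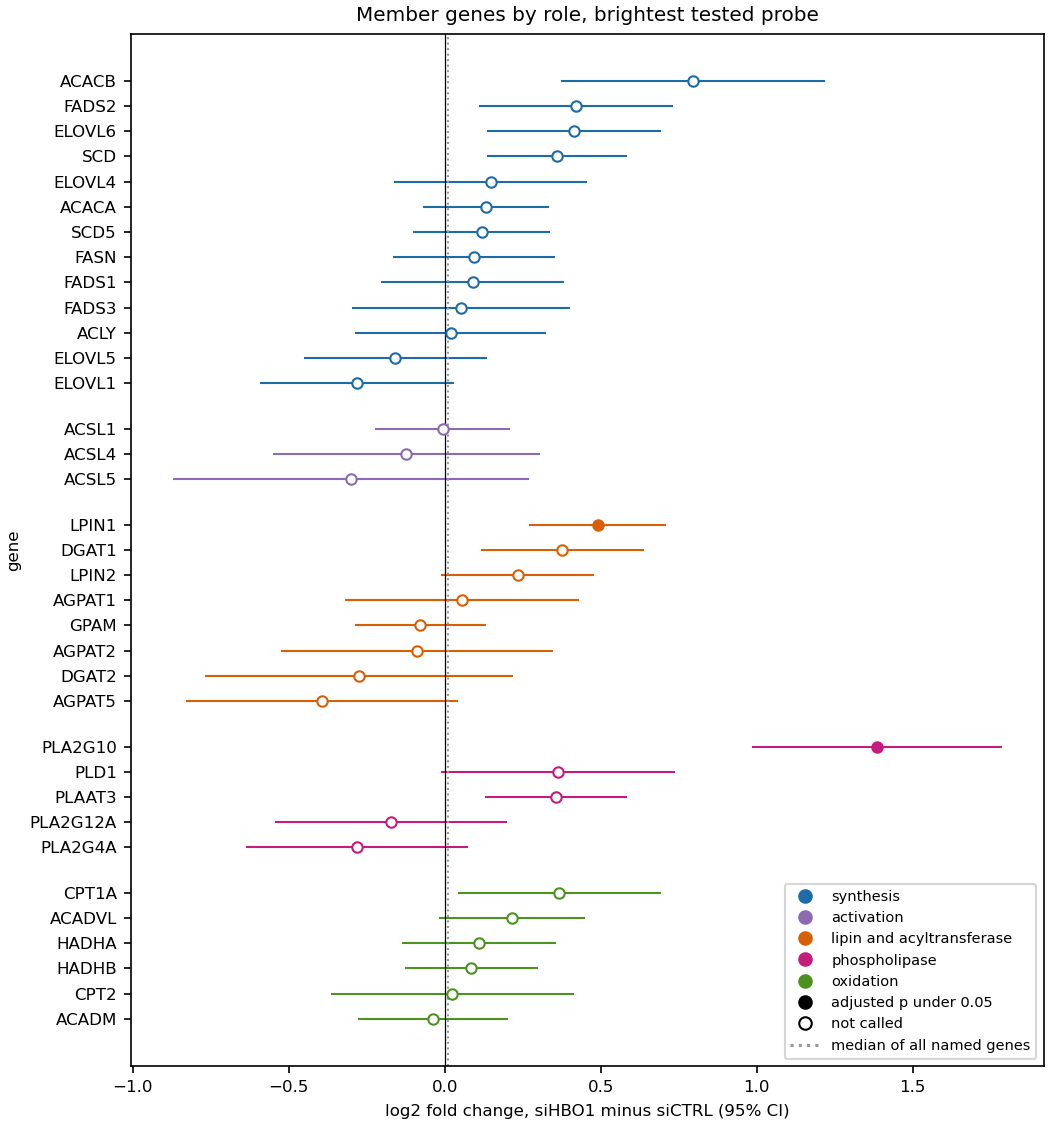
Log2 fold change (HBO1 siRNA minus control siRNA, horizontal axis) with its 95% confidence interval for the 35 tested members, by role class and in order of size, filled where the adjusted p was under 0.05. PLA2G10 at 1.39 and LPIN1 at 0.49 are the filled points, and the intervals of most other members cross 0.

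Among the enzymes of synthesis, ACACB had the largest difference, and it was not called. ACACB, the carboxylase tied to mitochondria whose malonyl-CoA restrains CPT1A, read 8.47, 8.63 and 8.08 in HBO1 siRNA cells, against 7.86, 7.56 and 7.38 in control siRNA cells. Every HBO1 siRNA array lay above every control array. The log2 fold change was 0.80 (SE 0.18), which is 1.74-fold, and the limma adjusted p = 0.0662 missed the threshold. It passed under 6 of the 16 alternatives that kept this threshold, and without background correction, where dim probes are compressed, the difference was 0.46. No omission of an array brought it past the threshold (limma adjusted p from 0.0518 to 0.195). ACACA, the cytosolic carboxylase that feeds FASN, lay between 11.07 and 11.21 in HBO1 siRNA cells and between 11.00 and 11.03 in control cells, a difference of 0.13 (limma adjusted p = 0.433). Its second tested probe gave 0.12, and the difference between the 2 carboxylases was not tested.

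The first enzyme of the pathway and its central synthase had small differences. ACLY, ATP-citrate lyase, differed by 0.02 on its brightest probe and by -0.17 on the other, and FASN, the fatty acid synthase, by 0.09 (limma adjusted p = 0.955 for the brightest ACLY probe and 0.68 for FASN). The 95% confidence interval ran from -0.29 to 0.33 for ACLY and from -0.17 to 0.35 for FASN. The sign for ACLY turned under median scaling, array weights and the mean of its probes, and on omitting control replicate 1 or the second or the third HBO1 siRNA array.

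The desaturases SCD and FADS2 and the elongase ELOVL6 had positive differences that were not called. SCD, the stearoyl-CoA desaturase that makes oleate, lay between 13.38 and 13.52 in HBO1 siRNA cells and between 12.98 and 13.14 in control cells (0.36, SE 0.09, limma adjusted p = 0.0925). ELOVL6, which extends palmitate to stearate, lay between 10.53 and 10.72 in HBO1 siRNA cells and between 10.01 and 10.35 in control cells (0.41, SE 0.12, limma adjusted p = 0.109), and its second probe gave 0.28. Both genes were apart between groups. SCD passed under 3 and ELOVL6 under 2 of the 16 alternatives. FADS2, the delta-6 desaturase of polyunsaturated fatty acids, read 6.96, 6.998 and 7.15 in HBO1 siRNA cells, against 6.45, 6.53 and 6.86 in control cells. Its groups were apart, by 0.42 (SE 0.13, limma adjusted p = 0.133), and this fell to 0.16 without background correction.

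The neighbours of FADS2 on chromosome 11 had smaller differences. FADS1, the delta-5 desaturase, and FADS3 lie next to FADS2 in one cluster of protein-coding genes and had differences of 0.09 and 0.05, with overlapping groups. The FADS1 sign turned under median scaling and on omitting the second HBO1 siRNA array, and that of FADS3 with array weights and on omitting that array or control replicate 1. Other tested elongases went both ways. ELOVL4, which makes very long chains, was at 0.15, and ELOVL5, which extends polyunsaturated chains, at -0.16. ELOVL1, which extends saturated very long chains, was at -0.28. For these elongases the limma adjusted p ran from 0.275 to 0.574. SCD5, the second human stearoyl-CoA desaturase, was at 0.12 on the 1 of its 3 probes that was detected. In all, 11 of 13 tested synthesis genes had a positive difference, with a class median of 0.12 that ranged from 0.03 to 0.17 over the alternatives, and in limma's test none was called. With median scaling ACLY and FADS1 moved below 0. At an unadjusted p under 0.05 limma gave 4 higher and 0 lower in this class. Over all named genes 12.9% were higher and 10.9% lower at that threshold, and 3.19% were called.

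Acyl-CoA synthetases, which activate free fatty acids, had 0 of 3 tested genes called by limma, and 0 passed unadjusted. Over all named genes 3.19% were called and 23.8% passed unadjusted. ACSL1 was at -0.0068, with a sign that turned with array weights and on omitting control replicate 3 or the second HBO1 siRNA array, between 9.51 and 9.66 in HBO1 siRNA cells and between 9.52 and 9.66 in control cells. ACSL4, which prefers arachidonate, read 10.65, 10.93 and 11.14 in HBO1 siRNA cells, against 10.73, 11.06 and 11.30 in control cells, a difference of -0.12 (SE 0.18) with overlapping groups and a sign that turned when the first HBO1 siRNA array or control replicate 3 was omitted. Another ACSL4 probe (ILMN_2391458), detected on 2 HBO1 siRNA and 3 control arrays, gave -0.51 (limma adjusted p = 0.113). ACSL5, a synthetase of mitochondria and endoplasmic reticulum, read 5.49, 5.71 and 6.42 in HBO1 siRNA cells, against 6.33, 5.94 and 6.25 in control cells. Its groups overlapped, it was detected on 1 HBO1 siRNA array and 3 control arrays, and its difference of -0.30 (SE 0.24) was -0.57 without the third HBO1 siRNA array, -0.11 without the first and -0.08 without background correction.

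In glycerolipid assembly, the enzymes before phosphatidate and those after it were read in turn. GPAM, the mitochondrial acyltransferase that starts the route, differed by -0.08 and -0.10 on its 2 probes. AGPAT1 and AGPAT2, which add the second acyl chain, were at 0.05 and -0.09 on their brightest probes, and the 3 AGPAT2 probes ran from -0.20 to 0.04. The AGPAT1 sign turned under median scaling and on omitting control replicate 3 or the first HBO1 siRNA array, and the AGPAT2 sign on omitting the second HBO1 siRNA array. AGPAT5, an acyltransferase of the same family, read 8.59, 8.30 and 8.96 in HBO1 siRNA cells, against 8.90, 9.24 and 8.89 in control cells. Its groups overlapped (-0.39, SE 0.19, limma adjusted p = 0.277), and it was at -0.24 without the second HBO1 siRNA array. These 4 genes held 0 calls, where 3.19% of all named genes were called.

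After phosphatidate, 2 uncalled genes had separate groups, as LPIN1 did. In the whole lipin and acyltransferase class 37.5% of tested genes were apart, beside 30.9% of all named genes. LPIN2, the lipin altered in Majeed syndrome, an inflammatory bone disease, lay between 9.96 and 10.11 in HBO1 siRNA cells and between 9.66 and 9.90 in control cells (0.23, SE 0.10, limma adjusted p = 0.252), and a second probe, detected on 2 arrays of each group, gave 0.29. DGAT1, which makes triacylglycerol from diacylglycerol in the endoplasmic reticulum, lay between 9.36 and 9.42 in HBO1 siRNA cells and between 8.83 and 9.18 in control cells (0.38, SE 0.11, limma adjusted p = 0.114). DGAT2, an unrelated enzyme of the same reaction, was at -0.27 (SE 0.21) with overlapping groups, at -0.49 without control replicate 1, -0.06 without control replicate 3 and -0.11 without background correction. The lipin and acyltransferase class had 1 of 8 tested genes called, beside 3.19% of all named genes. It had 4 positive and 4 negative differences, and a median of -0.01 that ran from -0.07 to 0.09 over the alternatives.

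Phospholipases had the highest class median, 0.36 over 5 genes, with a range of 0.24 to 0.39 over the alternatives. Of these 5 genes 1 was called, beside 3.19% of all named genes. PLAAT3 (listed as PLA2G16), a phospholipase A and acyltransferase best known from adipose tissue, lay between 11.38 and 11.54 in HBO1 siRNA cells and between 11.01 and 11.19 in control cells (0.36, SE 0.10, limma adjusted p = 0.0993). Its groups were apart, and it passed under 2 of the 16 alternatives. PLD1, which splits phosphatidylcholine into phosphatidate and choline, read 9.10, 9.58 and 9.33 in HBO1 siRNA cells, against 8.76, 8.98 and 9.18 in control cells. The first HBO1 siRNA array lay below the highest control array, so the groups overlapped (0.36, SE 0.16, limma adjusted p = 0.247).

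The other phospholipases A2 had negative differences and overlapping groups. PLA2G4A, the cytosolic enzyme that frees arachidonate inside cells, was at -0.28 (SE 0.15, limma adjusted p = 0.336) and was detected on 1 HBO1 siRNA array and 2 control arrays. PLA2G12A, another secreted form, was at -0.17 (SE 0.16, limma adjusted p = 0.587). The PLA2G12A difference was -0.02 without control replicate 2, -0.30 without control replicate 1 and -0.06 without background correction, and that of PLA2G4A was -0.08 without background correction and -0.43 without control replicate 1.

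**Figure D3:**
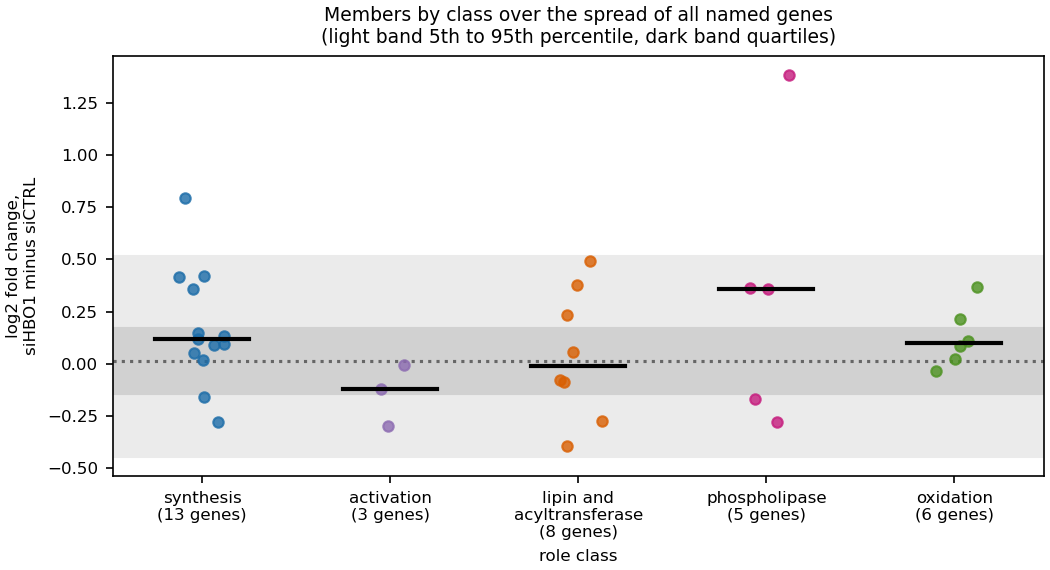
Log2 fold change (HBO1 siRNA minus control siRNA, vertical axis) of each tested member by role class, with the class median as a black bar, over the 5th to 95th percentile (light band) and the quartiles (dark band) of all 12227 named genes. PLA2G10 at 1.39 and ACACB at 0.80 lie above the light band, which ends at 0.52, and 0 members lie below it.

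Mitochondrial oxidation had 0 of 6 genes called by limma, beside 3.19% of all named genes. Its class median was 0.10 and ran from 0.02 to 0.14 over the alternatives. CPT1A, the carnitine palmitoyltransferase of the outer membrane, read 8.73, 8.72 and 8.62 in HBO1 siRNA cells, against 8.53, 8.40 and 8.05 in control cells on its brightest probe. The groups were apart by a small margin (0.37, SE 0.14, limma adjusted p = 0.187). Its other 2 probes gave -0.01 and 0.09, so the mean of its probes was at 0.15, and on the brightest probe it was at 0.24 without background correction and 0.23 without control replicate 3. CPT2, the inner-membrane partner, was at 0.02 with a sign that turned under median scaling and on omitting control replicate 3 or the first HBO1 siRNA array.

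The enzymes of the β-oxidation spiral were not called. ACADVL, which starts the spiral on very long chains, read 13.21, 13.20 and 13.27 in HBO1 siRNA cells, against 13.13, 12.88 and 13.04 in control cells. Its groups were apart (0.22, SE 0.10, limma adjusted p = 0.267), its other 2 probes gave 0.22 and 0.47, and median scaling gave 0.14. ACADM, the medium-chain dehydrogenase, was at -0.04 and -0.22 on its 2 probes, and the sign of the brighter one turned on omitting control replicate 2 or the third HBO1 siRNA array. HADHA and HADHB, the subunits of the trifunctional protein that completes the spiral, were at 0.11 and 0.08, with limma adjusted p of 0.606 and 0.647. In this class 1 of 6 genes, CPT1A, passed limma's test at an unadjusted p under 0.05, where 23.8% of all named genes did.

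Probes of one gene were a further check on these values. Of 10 members with 2 or 3 tested probes, 7 had all probes on one side of 0, and ACLY, AGPAT2 and CPT1A did not. The widest spans were those of ACSL4 and CPT1A, at 0.38 each, and the narrowest were those of ACACA (0.0092) and GPAM (0.02). Both called members rested on 1 probe, so neither could be checked in this way. A further 13 member probes were not tested, of which 12 were detected on 0 arrays and 1 on a single array.

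**Figure D4:**
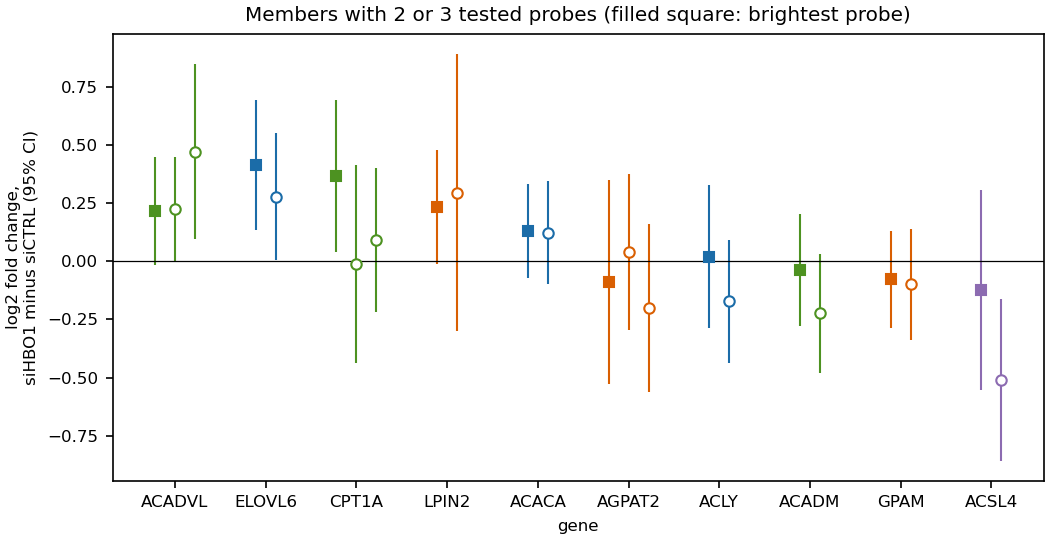
Log2 fold change (HBO1 siRNA minus control siRNA, vertical axis) with its 95% confidence interval for each tested probe of the 10 members with more than 1, the brightest probe as a filled square. The 3 ACADVL probes and both ELOVL6 probes lie above 0, while the probes of CPT1A, AGPAT2 and ACLY fall on both sides.

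A wider list of 122 other genes of the same pathways gave the setting, and it too was written with earlier results of these data known. Of its 101 tested genes, 3 were called higher and 2 lower, which is 4.95% beside the 3.19% of all named genes, and its median was 0.02. MLYCD, the decarboxylase that removes malonyl-CoA, read 9.27, 9.14 and 9.13 in HBO1 siRNA cells, against 8.73, 8.74 and 8.55 in control cells (0.51, SE 0.10, limma adjusted p = 0.0494). INSIG1, which holds SREBP in the endoplasmic reticulum, read 12.07, 12.26 and 12.04 in HBO1 siRNA cells, against 11.61, 11.56 and 11.63 in control cells (0.52, SE 0.10, limma adjusted p = 0.0434), and a second probe, not called, gave 0.30. Both genes were apart between groups and higher in HBO1 siRNA cells. ACSS2, which makes acetyl-CoA from acetate, was at 0.55 and was not called (limma adjusted p = 0.0546).

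The other calls of the wider list were in phospholipases. PLD2, which like PLD1 makes phosphatidate, read 8.24, 8.06 and 8.24 in HBO1 siRNA cells, against 7.54, 7.71 and 7.61 in control cells (0.56, SE 0.10, limma adjusted p = 0.0402), and was at 0.31 without background correction. PLD6, a mitochondrial member of the phospholipase D family, fell to 9.61, 9.49 and 9.67 in HBO1 siRNA cells, against 10.14, 10.46 and 10.47 in control cells (-0.77, SE 0.12, limma adjusted p = 0.0304). The groups of both were apart, in opposite directions. PLAAT1, a relative of PLAAT3, fell to 9.32, 9.05 and 9.43 in HBO1 siRNA cells, against 9.93, 9.91 and 9.96 in control cells (-0.67, SE 0.12, limma adjusted p = 0.0396). Each of these 5 calls was lost when at least 1 array was left out: MLYCD, INSIG1, PLD2 and PLAAT1 were called in 0 of the 6 omissions, with adjusted p from 0.0509 to 0.161, and PLD6 in 1, without control replicate 1 (0.0469). Median scaling also ended the calls of MLYCD (limma adjusted p = 0.085), INSIG1 (0.0635) and PLD2 (0.0548). Testing all probes without a detection filter ended those of MLYCD (0.0888), INSIG1 (0.0778), PLD2 (0.071) and PLAAT1 (0.0666). The mean of a gene's probes ended those of INSIG1 (0.0604) and PLD6 (0.0704).

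Within the wider list, lipases and other phospholipases had 14 of 24 tested genes with separate groups, 10 higher and 4 lower. That is 58.3%, beside 30.9% of all named genes, and the other classes of the list ran from 23.5% to 39.1%. The class as listed also holds genes that are not lipases or phospholipases themselves, among them PLIN2, PLIN3, ABHD5 and PAFAH1B1. Of these PLIN3 (0.30) and PAFAH1B1 (0.21) were apart and higher, ABHD5 (-0.11) was apart and lower, and PLIN2 overlapped. PLA2G4C, a cytosolic phospholipase A2, was the highest of the 24 at 0.86 and was not called (limma adjusted p = 0.051). Without background correction it was at 0.51. In this class limma gave 10 higher and 3 lower at an unadjusted p under 0.05, beside 12.9% and 10.9% of all named genes. Of all named genes 3.19% were called, the share that stands beside each class below. Phospholipid assembly had 0 of 31 genes called by limma, and 4 were higher and 4 lower at that unadjusted threshold. Its largest differences were -0.42 for PTDSS1, a phosphatidylserine synthase (limma adjusted p = 0.0592), and 0.40 for MBOAT1, a lysophospholipid acyltransferase. Activation and binding had 0 of 6 called by limma, with 1 higher unadjusted and 0.52 for SLC27A3 and 0.45 for SLC27A1, both fatty acid transport proteins. SLC27A1 was at 0.25 without the first HBO1 siRNA array and 0.27 without background correction. Oxidation had 0 of 23 called by limma, with 4 higher and 5 lower unadjusted, and values of 0.59 for ACAD10 and -0.50 for ACOX2, a peroxisomal oxidase that was at -0.23 without background correction.

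Promoter letters were counted over the whole set as a description. RefSeq windows of 250 bases before the start were found for 34 of 39 members, 54 windows in all. FASN, AGPAT5, LPIN3, DGAT1 and DGAT2 had no window and were not searched. The sterol element TCACNCCAC was in 1 member window, which is 1.85% beside 0.883% of all 35116 windows. That window belongs to 1 of several listed ACSL1 starts, and the other ACSL1 windows did not hold the element. The E-box CACGTG was in 7.41% of member windows beside 6.34%, and the CCAAT box CCAAT in 31.5% beside 32%, each on either strand. The GC box GGGCGG, added after the values were seen, was in 64.8% of member windows and 42.6% of all windows, and the median GC content was 66% in member windows and 58% in all. A match is a description of the letters in the window, and a window without one says nothing of binding.

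**Figure D5:**
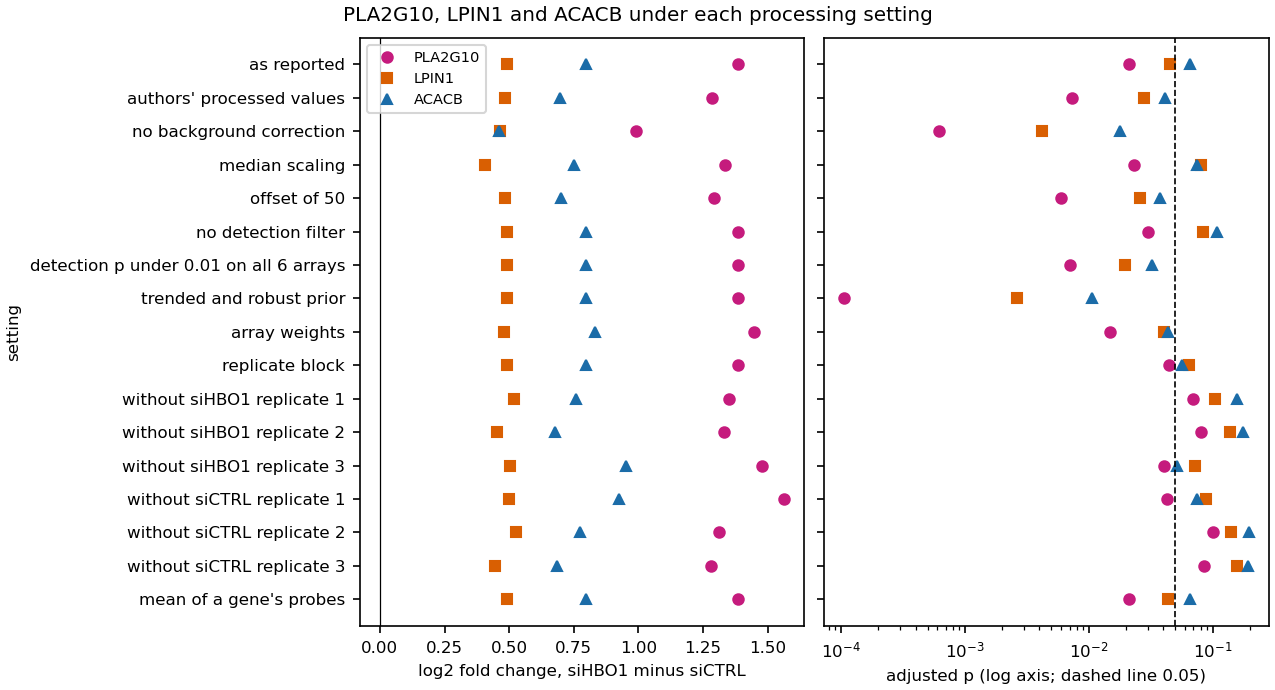
Log2 fold change (left) and adjusted p on a log axis (right) of PLA2G10, LPIN1 and ACACB, HBO1 siRNA minus control siRNA, under the reported processing and each of 16 alternatives down the page, with the threshold of 0.05 dashed. PLA2G10 stays between 0.99 and 1.56 and LPIN1 between 0.41 and 0.53, and leaving out an array moves most of the adjusted p values to the right of the threshold.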

How the data were processed

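Expression was measured on Illumina bead arrays in 3 HBO1 siRNA and 3 control siRNA samples. The deposited intensity table holds average bead signals and detection p-values, per the file headers, and its array medians differ, so it was taken as not normalised. The authors' processed table holds values taken to be log2 intensity. Its 6 columns share a median of 6.31, and it served as an alternative. The submitters' processing notes name GenomeStudio and lumi without settings.

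Intensities were processed with neqc in limma 3.58.1 (R 4.3.3), with an offset of 16, with 770 negative controls taken from the detection column. Of 47316 probes, the 21333 detected (p under 0.05) on at least 3 arrays were tested. The number of arrays limits the precision. Probe symbols came from the platform annotation (30109 probes with 1 symbol, 8 with several, 17199 with none) and were updated through the RefSeq table of GRCh38.p14. A gene was read by its brightest tested probe. Groups were compared with lmFit and eBayes, with Benjamini-Hochberg adjustment over all tested probes and a call at 0.05. No set was tested.

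The fit was tested on simulated data. Members and lists were chosen with earlier results of these data known. Values are given on every array for called members and for the 2 of each class with the largest difference, and otherwise as values or ranges. The alternatives changed the source (the authors' values), the background correction (none, or an offset of 50), the scaling (medians in place of quantiles) and the detection filter (none, or p under 0.01 on every array). Others used a trended and robust prior, array weights, the replicate number as a block, the mean of a gene's probes and thresholds of 0.01 and 0.10, or left out each array. Protein sequences were not used here.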

Additional observations from a re-analysis of the deposited data

How the results depend on the processing

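Over the 18 alternatives, 0 members were called lower, and the number called higher, 2 as reported, went from 0 to 7. It was 7 without background correction, 6 with a trended and robust prior, 4 with detection p under 0.01 on all 6 arrays, 5 at an adjusted p under 0.10, 1 with median scaling, 1 with no detection filter, 0 at an adjusted p under 0.01, and 0 to 1 on leaving out an array. Over all named genes the share called was 3.19% as reported. That share was 10.7% without background correction, 11% with the trended and robust prior and 8.09% with detection p under 0.01 on all 6 arrays. The members added were ACACB, SCD, ELOVL6, PLAAT3 and DGAT1. PLA2G10 was called under each alternative that kept all 6 arrays and the threshold of 0.05. Over the whole array, 582 probes were called as reported, against 979 with the authors' values, 1811 without background correction, 1020 with an offset of 50, 1136 with detection p under 0.01 on all 6 arrays, 1886 with a trended and robust prior, 913 with array weights, 247 with no detection filter, 2 at an adjusted p under 0.01, 1665 at 0.10 and 1 to 268 on leaving out an array. The members' median, 0.089 as reported, was 0.0043 with median scaling and 0.033 to 0.127 on leaving out an array. The cause of these changes was not tested.

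Replicate numbers are shared by the groups, and same-numbered arrays deviated together with correlations of 0.26, -0.02 and 0.22. Arrays of different number had correlations from -0.28 to 0.09. These values do not settle whether same-numbered arrays share an effect, and the reported fit did not take the numbers as pairs. With the replicate number as a block, 282 probes and 1 member, PLA2G10, were called. LPIN1 had a limma adjusted p = 0.0643 in that fit, and MLYCD (0.0643), INSIG1 (0.07), PLD2 (0.0707), PLD6 (0.0553) and PLAAT1 (0.057) were not called either.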
